A study of Mus musculus with 24 samples.

Results

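The comparison described here sets macrophages that lack the coactivator GRIP1 against wild-type macrophages, both treated with interleukin 4 (IL4). The assay was ATAC-seq, which reads chromatin accessibility by letting the transposase Tn5 cut open DNA and tag it for sequencing. The members are the 4 knockout (KO) and the 4 wild-type (WT) IL4 libraries, 8 of the 24 libraries of the study. They were read over 127325 autosomal peaks that passed a filter on low counts, of 141485 autosomal peaks in the deposited count table. Macrophages were grown from bone marrow of male C57BL/6 mice aged 8 to 10 weeks. KO cells were LysM-Cre+/+; GRIP1fl/fl and WT cells LysM-Cre+/+; GRIP1wt/wt, so both genotypes carried the recombinase, which the LysM (Lyz2) promoter drives in myeloid cells. IL4 was given at 10 ng/ml for 24 hours. The other groups, used beside the results, received vehicle or 100 nM of the glucocorticoid dexamethasone (Dex). All titles give 24 hours, but the vehicle libraries carry a slightly longer time in their treatment field. Whether the 4 libraries of each group stem from different mice or cultures is not stated in the labels, so p-values measure the spread between libraries, which may be technical. They also do not say which part of the gene the floxed allele removes, or whether the genotypes were littermates.

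GRIP1, encoded by Ncoa2, is a p160 coactivator that nuclear receptors and other transcription factors recruit to regulatory DNA, together with histone acetyltransferases. IL4 acts on macrophages through its receptor and the transcription factor STAT6, which binds enhancers and promoters of genes for alternative activation such as Arg1, Retnla and Mrc1. KLF4, a Krüppel-like factor that binds CACCC elements, is induced by IL4 in macrophages and has been linked to GRIP1. An ATAC-seq peak marks DNA that is open to the transposase, and its count does not tell which gene the DNA regulates.

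The IL4 libraries held 9633134 to 16625875 counts in peaks, against 5820149 to 21939330 over all 24, and the median tested peak held 36 counts per IL4 library. Levels are CPM (counts scaled to a common library total) after TMM scaling, given as mean ± SD of 4 libraries. A peak was called when edgeR's quasi-likelihood test gave a Benjamini-Hochberg adjusted p below 0.05 over the autosomal tested peaks. The typical standard error (SE) of a log2 difference was 0.19. Peaks of the macrophage genes Csf1r, Adgre1, Itgam, Spi1, Fcgr1 and Cd68 were open in all 8 libraries, none was called, and the most open Csf1r peak read 69.4 to 80.5 CPM.

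Promoters that differed between the genotypes are shown first, as the 250 bases before the RefSeq start (GRCm38.p6, the mm10 assembly), all on the minus strand and all inside a called peak. They were chosen after their values were seen, as promoters of genes with known roles from both sets of peaks described below. Capitals mark CACCC and its complement GGGTG. Steap3 (chr1:120258879-120259128) encodes a metalloreductase of iron uptake, Cxcr4 (chr1:128592300-128592549) a chemokine receptor and Plcd1 (chr9:119088262-119088511) a phospholipase C. Abca1 (chr4:53159896-53160145) encodes the cholesterol exporter and Ltc4s (chr11:50238533-50238782) leukotriene C4 synthase.
Steap3: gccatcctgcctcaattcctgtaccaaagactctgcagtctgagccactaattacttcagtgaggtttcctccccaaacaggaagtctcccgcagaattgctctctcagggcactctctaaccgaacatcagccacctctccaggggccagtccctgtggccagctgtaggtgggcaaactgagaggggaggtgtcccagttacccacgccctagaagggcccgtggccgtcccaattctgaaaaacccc
Cxcr4: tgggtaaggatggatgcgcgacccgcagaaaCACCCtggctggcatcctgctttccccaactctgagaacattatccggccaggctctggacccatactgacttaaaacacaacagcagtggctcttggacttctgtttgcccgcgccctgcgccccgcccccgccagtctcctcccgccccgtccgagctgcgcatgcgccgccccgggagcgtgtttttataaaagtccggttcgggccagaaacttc
Plcd1: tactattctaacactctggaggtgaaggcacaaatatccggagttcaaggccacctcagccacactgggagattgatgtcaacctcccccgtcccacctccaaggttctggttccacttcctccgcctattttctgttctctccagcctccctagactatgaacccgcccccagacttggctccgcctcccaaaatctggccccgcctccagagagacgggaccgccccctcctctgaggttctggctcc
Abca1: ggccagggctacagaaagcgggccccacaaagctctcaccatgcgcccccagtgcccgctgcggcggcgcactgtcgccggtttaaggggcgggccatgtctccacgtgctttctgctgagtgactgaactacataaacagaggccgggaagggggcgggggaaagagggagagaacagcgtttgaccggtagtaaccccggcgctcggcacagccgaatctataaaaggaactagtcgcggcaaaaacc
Ltc4s: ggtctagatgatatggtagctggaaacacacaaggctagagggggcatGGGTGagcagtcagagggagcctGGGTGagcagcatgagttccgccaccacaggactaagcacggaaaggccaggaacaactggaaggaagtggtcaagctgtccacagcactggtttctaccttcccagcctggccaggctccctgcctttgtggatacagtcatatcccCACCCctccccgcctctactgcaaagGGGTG

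The Ltc4s window held 4 CACCC matches on either strand, the Cxcr4 window 1 and the other 3 windows none. Among 43 RefSeq promoter windows that touched a called peak, 31 (72.1%) held CACCC, against 57.6% of 14662 windows that touched any tested peak and 52.2% of all 31396 autosomal windows. The STAT pattern TTCNNNNGAA, which reads the same on both strands, was in none of the 5 windows, in 3 of the 43 (6.98%), in 4.79% of windows in tested peaks and in 5.90% of all. These are letter matches in a short window and not sites shown to be bound.

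At none of these 5 promoters did the KO and WT libraries overlap, which was so at 5.44% of all tested peaks and at 93.8% of the called ones. The promoters were picked from called peaks, so this adds little to the calls. At Steap3, at a RefSeq start 6.16 kb from the one in the authors' deposited table, KO libraries read 15.9, 14.1, 14.4 and 13.2 CPM and WT libraries 3.64, 4.21, 4.38 and 4.75. The log2 difference of KO minus WT was 1.76 ± 0.13 (SE; edgeR, adjusted p = 1.58e-20), and the groups lay far apart. Cxcr4 read 42.0, 41.8, 41.7 and 42.1 CPM in KO and 30.2, 34.5, 28.1 and 32.8 in WT (0.41 ± 0.07, edgeR adjusted p = 0.000118). Plcd1 was lower in KO, at 22.9 ± 0.83 against 35.9 ± 1.43 CPM (-0.64 ± 0.07, edgeR adjusted p = 2.22e-10). Abca1 read 21.3, 21.5, 22.2 and 21.7 CPM in KO and 29.3, 24.0, 29.9 and 27.2 in WT (-0.34 ± 0.08, edgeR adjusted p = 0.0110). Ltc4s read 21.6 ± 1.66 CPM in KO and 17.2 ± 1.91 in WT (0.33 ± 0.08, edgeR adjusted p = 0.0320). The first 3 lie in chromosome segments dense in genotype differences, which are described next, and the last pair does not. The Abca1 call was lost without WT IL4 library 1 or 3 (both -0.31). Calls at the other promoters shown here, with Ltc4s nearest the threshold, were not followed through the alternative fits.

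Under IL4, 938 peaks were called between the genotypes, 0.737% of the tested peaks: 484 (0.38%) were higher and 454 (0.357%) lower in KO. These calls were unevenly spread over the genome. Segments were set from a genotype test on the 16 vehicle and Dex libraries alone. The IL4 libraries entered only through the filter on low counts, which used all 24 libraries. Windows of 1 Mb counted as dense when at least 10 peaks were tested, 5 were called and the share called was at least 4 times the autosomal 2.18%, which is 8.70%. Dense windows up to 2 windows apart were joined, and a segment needed 2 of them. The share just above that limit was 9.26% in a window of chromosome 7, and the share just below it 8.40% in a window of chromosome 3. This gave 12 segments on 6 chromosomes with 52 Mb and 3818 tested peaks.

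Inside the segments 464 of 3818 peaks were called under IL4, or 12.2%, of which 209 (5.47%) were higher and 255 (6.68%) lower in KO. Outside, 474 of 123507 were called, or 0.384%, of which 275 (0.223%) were higher and 199 (0.161%) lower. Thus 3.00% of the tested peaks held nearly as many calls as all others together. The count outside fell to 299 without WT IL4 library 3 and to 315 without KO IL4 library 1, and DESeq2 called 277 there. The higher ones outside numbered 169 without WT library 2 and 165 without WT library 3, and the lower ones 126 without KO library 1 and 130 without KO library 3. Genotype differences tied to a chromosome segment and those that follow the loss of GRIP1 cannot be told apart in this design.

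**Figure D1:**
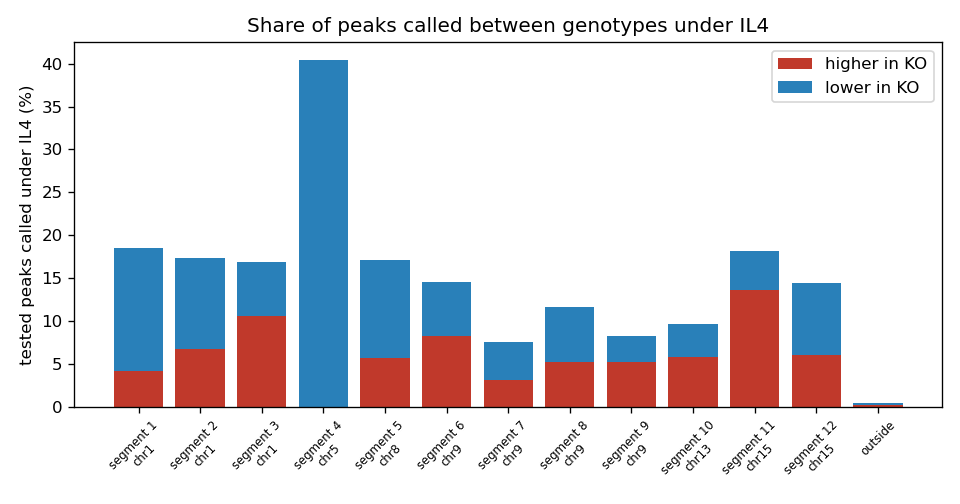
Share of tested peaks called between KO and WT under IL4, in percent, in each of the 12 segments and outside them, with bars stacked by direction. Shares ran from 7.55% to 40.5% over the segments, and the segment on chromosome 5 had lower peaks only.

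The segments differed in direction. The segment on chromosome 5 (14 to 16 Mb) had 53 of 131 peaks called, all lower in KO, and 125 of its 131 peaks had a negative log2 difference, with a median of -1.13. No other segment leaned so far: medians elsewhere ran from -0.09 to 0.10. On chromosome 15 (52 to 55 Mb) 15 called peaks were higher and 5 lower, and in the segment that holds Ncoa2 (chromosome 1, 13 to 15 Mb) 5 were higher and 17 lower. Chromosome 9 carried 4 segments, from 48 to 53, 56 to 64, 67 to 73 and 114 to 125 Mb, with 48, 65, 52 and 78 calls.

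Ncoa2, the targeted gene, had 38 tested peaks inside it or assigned to its start, of which 7 (18.4%) were called, 3 higher and 4 lower in KO. In its whole segment 22 of 119 peaks (18.5%) were called, and over all tested peaks 0.737%. Its promoter peak (chr1:13372246-13374626) read 76.8 CPM in KO and 74.3 in WT and was not called (log2 difference 0.05, edgeR adjusted p = 0.890). A peak 49.7 kb before the start (chr1:13423543-13423943) read 4.70, 6.95, 6.02 and 3.83 CPM in KO and 0.91, 1.05, 0.41 and 1.02 in WT (2.60 ± 0.22, edgeR adjusted p = 2.43e-16). A peak inside the gene (chr1:13256160-13256636) read 2.69, 2.80, 2.57 and 3.52 CPM in KO and 7.44, 7.96, 6.93 and 6.43 in WT (-1.32 ± 0.15, edgeR adjusted p = 7.02e-11). The groups did not overlap at either peak, as at 95.7% of the called peaks inside the segments. The most open called peak inside the gene (chr1:13206487-13207530) was higher in KO, at 25.8 ± 0.71 against 19.8 ± 1.81 CPM (0.39 ± 0.08, edgeR adjusted p = 0.00318). That call was lost without WT IL4 library 1 (0.33). A further peak inside the gene (chr1:13342449-13343216) was lower in KO by a log2 difference of -0.80 ± 0.15. Peak counts at Ncoa2 do not check the genotype labels, since the sources used here do not give the position of the deletion.

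Of the peaks inside the segments, the largest differences approached presence against absence. A peak 18.2 kb from Scn10a, a sodium channel gene (chr9:119736924-119737536), read 1.34, 1.36, 1.15 and 1.41 CPM in KO and 27.03, 23.5, 25.7 and 24.1 in WT (-4.23 ± 0.15, edgeR adjusted p = 4.39e-40). A peak 30.7 kb from Myrip, which encodes a linker of myosin and Rab27 (chr9:120272938-120273855), read 13.8, 17.2, 16.3 and 15.4 CPM in KO and 0.91, 0.70, 1.02 and 0.75 in WT (4.23 ± 0.16). Both peaks separated the genotypes in every library, which the rule for naming peaks required. The groups did not overlap at 95.7% of the called peaks inside the segments and at 5.44% of all tested peaks.
Peaks in Alg9, a mannosyltransferase gene of glycoprotein synthesis, Rec114, a meiotic recombination gene, and Tbc1d22a, a peak 266 kb from Tle3, a corepressor gene, and one without an assigned gene (chr13:46134714-46134901) were higher by 2.92 to 3.61 on the log2 scale. Peaks in 4930509E16Rik, 4930563M21Rik and Pstpip1, which encodes an adaptor of the actin cytoskeleton, and peaks 166 kb from Mir467h and 56.7 kb from 1700017B05Rik were lower, with log2 differences from -4.37 to -3.32. No count was seen in the 4 KO libraries at a peak in Tmem163, a zinc transporter gene (chr1:127527640-127527862), and at one 181 kb from Zc3h12c (chr9:52349284-52349500). Against a floor of 3 counts over the KO group, WT was at least 21.7-fold and at least 29.1-fold higher there. This pair lay under the limit of 1 CPM for named peaks and was named after its values were seen.

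Outside the segments the leading peaks were of the same kind, mostly distal and of low level. In Gm3435, on chromosome 17 (chr17:15021508-15022340), KO libraries read 5.28, 4.99, 4.34 and 5.16 CPM, from 49 to 66 counts each, and no WT IL4 library had a count. Against a floor of 3 counts over the WT group, KO was at least 81.9-fold higher. A peak 167 kb from Tmem74, which encodes a regulator of autophagy (chr15:43703193-43703715), read 10.8, 13.6, 10.2 and 11.8 CPM in KO and 1.32, 0.70, 0.61 and 0.28 in WT (3.95 ± 0.19, edgeR adjusted p = 3.85e-31). A peak inside Capn5, a calpain protease gene, and nearest to Omp (chr7:98149037-98149466) read 16.02, 10.9, 14.6 and 10.4 CPM in KO and 0.99, 0.99, 0.92 and 1.21 in WT (3.64 ± 0.19). All KO libraries stood above all WT libraries at these peaks, which the rule for naming peaks required, and the groups did not overlap at 4.98% of all tested peaks outside. Peaks in Cobl, an actin nucleator gene, in Pkd1l1 (nearest start Hus1) and 257 kb from 4931420L22Rik were higher, as were 4 peaks near olfactory receptor genes. The last lay 18.8 kb from Olfr1258, 19.04 kb from Olfr140, 2.71 kb from Olfr1261 and inside Olfr32. These 7 peaks were higher by 3.11 to 4.65 on the log2 scale.

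The largest falls outside the segments were smaller than the largest rises. A peak 11.5 kb from Nrg4, which encodes a ligand of ErbB receptors (chr9:55294966-55295299), read 1.82, 1.59, 1.68 and 1.64 CPM in KO and 8.18, 8.25, 7.95 and 8.38 in WT (-2.28 ± 0.18, edgeR adjusted p = 6.45e-18). With vehicle the same peak had a log2 difference of -0.50 (edgeR adjusted p = 0.626), and with Dex of 0.33 (edgeR adjusted p = 0.693). The test of IL4 against vehicle gave an adjusted p of 0.0841 there. A peak 27.4 kb from Gm27162 (chr9:32901329-32901789) read 1.15, 1.21, 1.59 and 1.17 CPM in KO and 4.38, 4.86, 6.22 and 4.47 in WT (-1.94 ± 0.21). Peaks in Mcc, Dpp10 and Abca13, 30.9 kb from 4930550C14Rik, 544 kb from Olfr1507 and at chr15:67415240-67415372 fell by between 1.63 and 2.56 on the log2 scale. The promoter of the histone gene H4c17 (chr13:21811584-21812759) read 2.40, 3.32, 3.89 and 2.11 CPM in KO and 8.68, 10.07, 8.16 and 13.4 in WT (-1.78 ± 0.24). Histone and olfactory receptor genes belong to large families of related genes. The sources used here do not say how reads that match several places were counted, and whether these peaks have copies elsewhere was not tested, so their values are uncertain.

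**Figure D2:**
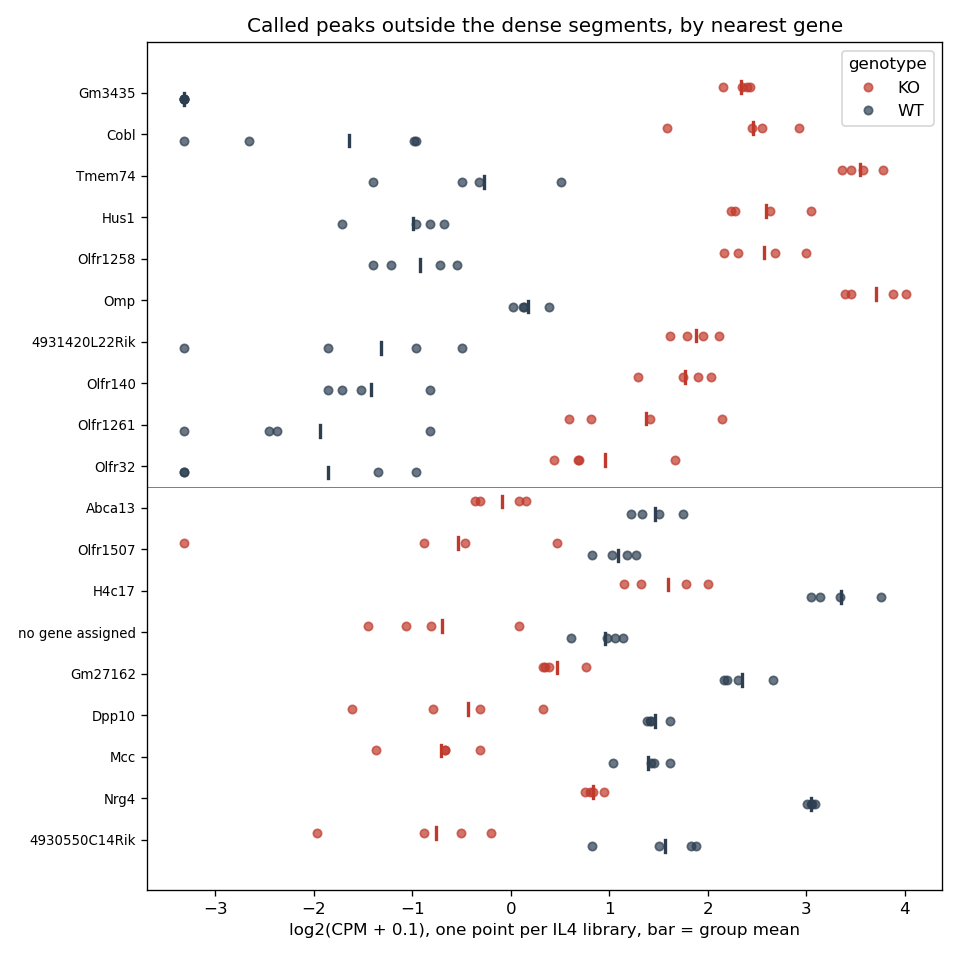
Accessibility as log2(CPM + 0.1) of the 10 most raised and 9 of the 10 most lowered called peaks outside the segments, one point per IL4 library (4 KO, 4 WT) and a bar at the group mean, labelled by nearest gene. No KO point overlaps the WT points of its peak, as the rule for naming peaks required, and Gm3435 has no count in WT.

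Calls outside the segments also came in runs. They fell in 294 windows of 1 Mb, of which 222 held 1 call, while 15 windows with 5 or more held 114. The window at 43 to 44 Mb of chromosome 15, with Rspo2 and Tmem74, had 20 of 43 peaks called, 17 higher and 3 lower. The window at 85 to 86 Mb of chromosome 1 had 15 of 198 called, all higher in KO, at Sp110, A530032D15Rik, C130026I21Rik and neighbours, in a cluster of related nuclear body genes. None of these 15 was called with vehicle and 4 were called with Dex, but all 15 had the same sign with both. This window and the one on chromosome 15 are among the lone dense windows described below. Adjoining windows of chromosome 2 (89 to 91 Mb), among olfactory receptor genes, had 12 calls, all higher. In all, 13 windows outside the segments were themselves dense in the vehicle and Dex libraries but stood alone. They held 66 of the 474 calls, all with the same sign with vehicle and with Dex. Without these windows 408 of 122707 peaks (0.332%) were called.

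Outside the segments, 4 further promoters are given for the known roles of their genes, and they differed modestly. Alox5ap, which encodes the 5-lipoxygenase activating protein of leukotriene synthesis (chr5:149264518-149265305), read 13.5, 10.9, 11.6 and 12.3 CPM in KO and 8.27, 7.73, 8.87 and 8.66 in WT (0.53 ± 0.11, edgeR adjusted p = 0.00165). Prkaa1, which encodes a catalytic subunit of AMP-activated kinase, was lower in KO at 13.2 ± 1.32 against 16.9 ± 0.71 CPM (-0.35 ± 0.09, edgeR adjusted p = 0.0282). Aph1b, a subunit gene of gamma-secretase, read 76.6 ± 3.82 CPM in KO and 100.4 ± 5.48 in WT (-0.39 ± 0.07, edgeR adjusted p = 2.33e-05). It lies in a window (66 to 67 Mb of chromosome 9) that borders a segment and had 5 of 121 peaks called. Of these 5, 3 were also called with vehicle and 4 with Dex. Hivep2, a zinc finger transcription factor gene, was lower by a log2 difference of -0.27 ± 0.07 (edgeR adjusted p = 0.0314). These 4 were named after their values were seen, and their calls were not followed through the alternative fits. Of all called peaks outside, 6.96% lay within 1 kb of a start, against 12.7% of the peaks tested there, and inside the segments 5.17% against 10.4%.

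Called peaks inside the segments changed more than those outside: the median size of the log2 difference was 1.29 against 0.91, and 67.2% against 44.1% reached 2-fold. Vehicle and Dex libraries of the same genotypes share no library with the IL4 comparison, and their values stand beside it without a test, since they set the segments. Of the 464 calls inside, 458 had the same sign with vehicle and 294 (63.4%) were also called there in the same direction. With Dex 321 (69.2%) were. Of the 474 outside, 434 (91.6%) had the same sign with vehicle, 111 (23.4%) were also called and 130 (27.4%) were called with Dex. Called in all 3 treatments were 264 peaks inside and 93 outside. With vehicle 0.523% of all tested peaks were called and with Dex 0.84%.

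**Figure D3:**
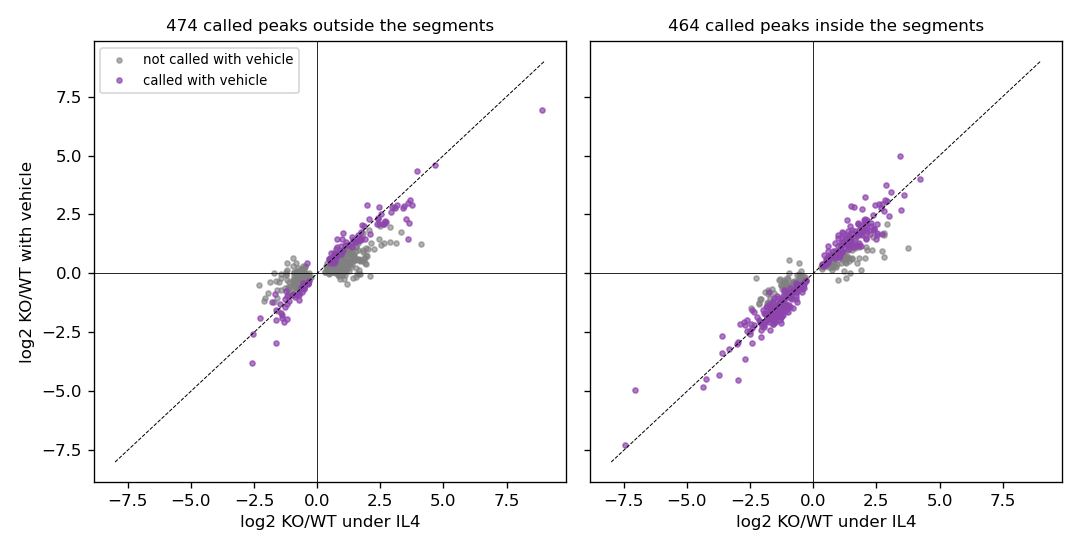
Log2 difference of KO minus WT with vehicle against the same difference under IL4 for the 474 called peaks outside (left) and the 464 inside the segments (right), coloured by whether the peak was also called with vehicle; the dashed line marks equal values. Points outside the segments lie mostly nearer to 0 with vehicle than under IL4, and the peaks were chosen for their difference under IL4.

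Whether the genotype difference itself differed between IL4 and vehicle was tested as an interaction. It was called at 3 peaks (0.00236% of those tested), while 5207 (4.09%) had an unadjusted p under 0.05. The typical SE of this difference was 0.29, larger than that of either genotype difference. Of the 3, one lies outside the segments and was named by rule, and the others were named after their values were seen.

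The peak that differed most lies on chromosome 9 (chr9:63927777-63928824), 7.1 kb from the long noncoding RNA gene Gm36033 and 24.3 kb from the end of Smad6, which encodes an inhibitor of BMP signalling. Under IL4 KO libraries read 8.34, 12.2, 11.1 and 10.2 CPM and WT libraries 2.40, 2.28, 3.47 and 3.35. With vehicle KO read 3.85, 2.98, 3.79 and 3.76 and WT 3.38, 3.69, 2.67 and 2.89, and with Dex all 8 libraries lay between 2.11 and 3.94. Thus the 4 KO IL4 libraries stood alone above the other 20. The genotype difference was 1.91 ± 0.15 under IL4 and 0.16 with vehicle, and the difference between them 1.75 (edgeR, adjusted p = 8.40e-05). The interaction was called in all 17 alternative fits that tested the peak (adjusted p 1.15e-05 to 0.00298). None of the 7 other tested peaks within 25 kb was called under IL4 or in the interaction. This peak lies in a segment dense in genotype differences (56 to 64 Mb).

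A peak inside Ldlrad4, which encodes an inhibitor of TGF-beta signalling (chr18:68058969-68059785), changed sign. Under IL4 KO libraries read 11.6, 16.02, 15.1 and 12.4 CPM and WT libraries 16.9, 20.4, 19.8 and 15.9, which overlap. With vehicle KO read 18.03, 14.97, 14.8 and 13.0 and WT 9.68, 12.1, 11.5 and 11.9. The genotype difference was -0.41 under IL4 and 0.43 with vehicle, and both were called (edgeR, adjusted p = 0.0166 and 0.0375). The call under IL4 was lost without KO library 1 or 4 or WT library 2 or 3 (-0.34 to -0.38). The third peak, 88.8 kb from 1700020M21Rik (chr9:120826079-120826874), was higher in KO throughout, at 35.9 ± 3.01 against 9.52 ± 0.82 CPM under IL4 and 31.7 ± 2.10 against 4.69 ± 0.79 with vehicle. Its genotype difference was 1.93 under IL4 and 2.73 with vehicle. The interaction at Ldlrad4 (edgeR adjusted p = 0.0116) was lost without KO IL4 library 1 or 4 or WT library 2, with an adjusted p of up to 0.118. That at 1700020M21Rik (edgeR adjusted p = 0.0229) was lost with DESeq2 and without KO library 1 or WT library 4, with an adjusted p of up to 0.125.

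**Figure D4:**
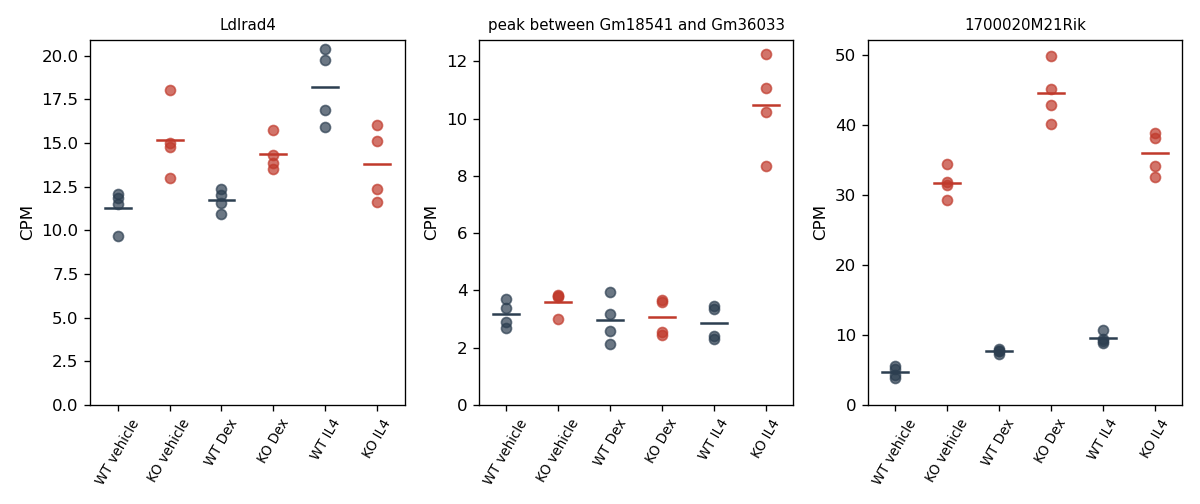
Accessibility in CPM of the 3 peaks whose genotype difference differed between IL4 and vehicle, one point per library (4 per group, 24 in all) and a bar at the group mean, in WT (dark) and KO (red). In the middle panel only the 4 KO IL4 libraries lie above 4 CPM.

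The genes that IL4 itself regulates were asked for directly, through a list of 34 IL4 and STAT6 targets with 348 tested peaks. By edgeR's quasi-likelihood test none of the 348 was called between the genotypes, and DESeq2 also called 0. All 348 lie outside the segments, where edgeR called 0.384% of the tested peaks, against 0.737% of all tested peaks. At these shares few calls would fall in 348 peaks. An unadjusted p under 0.05 was seen at 29 (8.33%), against 9.07% of all tested peaks, and the smallest adjusted p was 0.170. Their log2 differences ran from -0.67 to 0.78 with a median of -0.04, against -0.01 over all tested peaks. Fitted on the 8 IL4 libraries alone, 1 of them was called, a peak 23.0 kb from Chil3 (6.09 ± 1.06 CPM in KO, 3.84 ± 1.29 in WT, adjusted p = 0.0266 there and 0.420 in the fit of all libraries).

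For each of these genes the peak with the largest rise with IL4, averaged over the genotypes, was then described, a choice made after the data were seen that does not use the genotype difference. A peak lies 11.3 kb from the start of Cish, which encodes a feedback inhibitor of cytokine signalling (chr9:107307539-107308418). There KO libraries read 22.1, 27.5, 29.6 and 29.9 CPM and WT libraries 26.8, 28.1, 26.0 and 24.2. IL4 raised it over vehicle by a log2 value of 3.38 ± 0.14 in WT and 3.27 ± 0.14 in KO, and the genotype difference was 0.05 (95% interval -0.14 to 0.25). At a peak 6.76 kb before the start of Slc7a2, an arginine transporter gene, the rise was 3.35 ± 0.23 in WT and 3.66 ± 0.25 in KO, with 6.28 ± 1.44 CPM in KO and 6.999 ± 0.66 in WT under IL4. At a peak 7.7 kb from Itgax, the CD11c gene, it was 3.40 ± 0.15 and 2.85 ± 0.14. At the peak assigned to Socs1, a further feedback inhibitor, which lies 85.1 kb from its start inside Clec16a, it was 2.95 ± 0.22 and 3.32 ± 0.23. These pairs overlapped between genotypes in their IL4 libraries.

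Effector genes of alternative activation had genotype differences that mostly lay within their error. A peak 25.4 kb before the start of Arg1, the arginase gene, and inside Gm36228 read 3.62 ± 1.34 CPM in KO and 4.19 ± 0.69 in WT (-0.21, interval -0.59 to 0.17), and the Chil3 promoter 4.34 ± 1.27 and 4.11 ± 1.06 (0.07, -0.29 to 0.43). The Retnla promoter read 1.29 ± 0.31 and 1.81 ± 0.37 CPM (-0.49, -1.07 to 0.09), a low level whose interval reaches past a 2-fold loss. A peak in Mrc1, the mannose receptor gene, read 1.47 ± 0.42 and 2.27 ± 0.46 CPM (-0.66, -1.20 to -0.12, edgeR adjusted p = 0.346). Peaks of transcription factor genes varied in the width of their intervals. At Irf4, 82.1 kb from its start inside Exoc2, the difference was 0.06 (-0.27 to 0.39). At Pparg, 11.3 kb from its start, the difference was -0.10 (-0.34 to 0.14). Intervals were wider at Egr2 (0.27, -0.43 to 0.98) and Myc (-0.36, -0.87 to 0.14). Over the 34 genes, 23 of these peaks were lower and 11 higher in KO, and the differences ran from -0.66 to 0.50. At none of them were the groups separate, against 5.44% of all tested peaks. The rise with IL4 reached 2-fold in 25 genes in WT and in 24 in KO, 22 of them shared. The estimated rise differed between the genotypes at some genes, although the interaction was called at none. At Mrc1 it was 1.61 ± 0.31 in WT and 0.65 ± 0.33 in KO, and at Flt1 1.96 ± 0.22 and 1.29 ± 0.22. At Alox15 it went the other way, with -0.03 ± 0.33 in WT and 0.95 ± 0.33 in KO. The interaction was called at none of the 348 peaks, with 12 (3.45%) at an unadjusted p under 0.05, against 4.09% of all tested peaks. A p above the threshold does not show that the genotypes are equal.

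**Figure D5:**
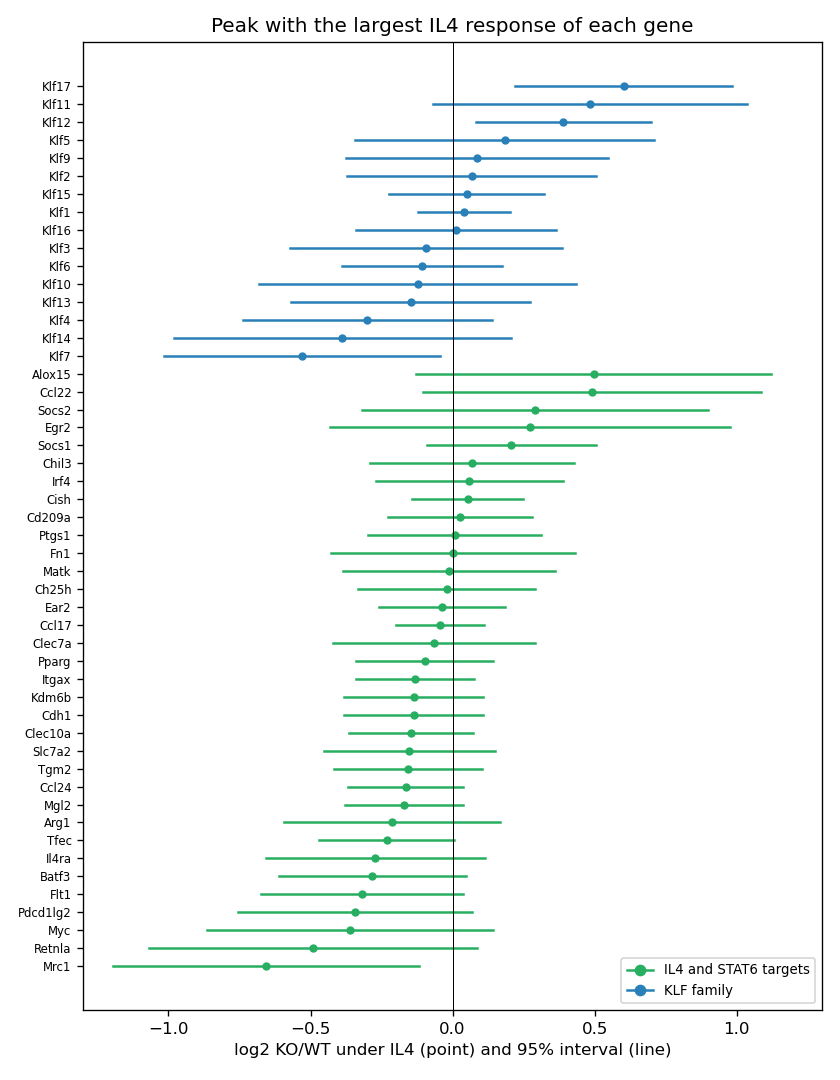
Log2 difference of KO minus WT under IL4 (point) with its 95% interval (line) at the peak with the largest IL4 response of each of 34 IL4 and STAT6 target genes (green) and 16 KLF genes (blue). Most intervals include 0; Mrc1, Klf7, Klf12 and Klf17 are the exceptions, and none of them was called. Intervals are not adjusted for the number of genes.

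The KLF family was read in the same way. Of 208 tested peaks of 16 KLF genes, 1 was called, a peak 248 kb from Klf6 (chr13:6108943-6109888) with 20.7, 25.5, 24.5 and 21.7 CPM in KO and 30.8, 29.0, 31.4 and 27.4 in WT (-0.35 ± 0.08, edgeR adjusted p = 0.00715). The call was lost without KO IL4 library 1 (-0.31) or 4 (-0.32). It makes 0.481% of the list's peaks, which all lie outside the segments. The share called was 0.384% over all tested peaks outside and 0.737% over all tested peaks. At the Klf4 peak with the largest IL4 rise, 443 kb from its start, KO read 2.67 ± 1.12 and WT 3.39 ± 0.69 CPM (-0.30, -0.74 to 0.14). At the Klf7 peak, 49.6 kb from its start, the rise was 2.93 ± 0.34 in WT and 1.31 ± 0.31 in KO. The interaction there was -1.63 ± 0.51 (edgeR, unadjusted p = 0.00203) and was not called. The Klf5 peak went the other way, at -0.07 ± 0.26 in WT and 0.54 ± 0.28 in KO. Its interaction was 0.60 ± 0.38 (edgeR, unadjusted p = 0.119) and was not called either. A peak 21.6 kb from Klf17 read 3.55, 3.55, 3.36 and 3.75 CPM in KO and 2.81, 2.58, 1.63 and 2.14 in WT, without overlap and without a call (edgeR adjusted p = 0.116).

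The 18 lists held 3164 peaks, of which 69 lay inside the segments. Of the 3164, 8 were called, 1 higher and 7 lower in KO. This is 0.253%, against 0.737% of all tested peaks and 0.384% of those outside the segments. The peaks assigned to Ncoa2 in the coactivator list made 4 of the 8. The others were the Klf6 peak, the Abca1 promoter and a pair of peaks at Mmp9, which encodes a gelatinase. The Mmp9 peak 7.0 kb from the start (chr2:164941128-164941321) read 4.99, 6.12, 5.75 and 5.08 CPM in KO and 7.61, 8.43, 8.16 and 8.01 in WT (-0.55 ± 0.13, edgeR adjusted p = 0.0138). The one 12.2 kb away (chr2:164935780-164936353) read 17.8 ± 1.56 and 22.9 ± 1.83 CPM (-0.36 ± 0.09). Their values with vehicle were -0.39 and -0.44, of which the second was called. The nearer peak lost its call without KO library 1 or 4 or WT library 2 (-0.51 to -0.53), and the farther one without KO library 1 or 3 or WT library 1, 2 or 3 (-0.33 to -0.36).

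No peak was called by edgeR or by DESeq2 among 327 of glucocorticoid receptor targets, 323 of inflammatory cytokines and NF-kB targets, 131 of interferon-stimulated genes, 94 of antigen presentation, 357 of efferocytosis and scavenger receptors or 410 of macrophage lineage genes. At an unadjusted p under 0.05 these lists had 34, 26, 8, 5, 23 and 33 peaks, which are shares from 5.32% to 10.4%, against 9.07% of all tested peaks. The share called by edgeR was 0.737% over all tested peaks and 0.384% outside the segments, at which lists of this size would hold few calls. The summed level of the interferon-stimulated genes ran from 863 to 1181 CPM over the WT libraries and from 836 to 889 over the KO libraries. Both ends of the range were lower in KO in all other lists too, except KLF genes, neutrophil markers and fibroblast and stromal markers. Examples are inflammatory genes (3060 to 3387 in WT, 2957 to 3079 in KO) and tissue repair and matrix genes (2166 to 2198 and 2081 to 2162). Others are IL4 and STAT6 targets (3135 to 3281 and 2895 to 3233) and macrophage lineage genes (3697 to 3813 and 3584 to 3765). Fibroblast and stromal markers ran from 195 to 208 in WT and from 197 to 209 in KO. These sums were not tested. Lists for the other cells a bone marrow culture could hold (neutrophils, dendritic cells, B cells, T and NK cells, fibroblasts, mast cells and basophils, erythroid cells and megakaryocytes) had no call by either tool among 59, 108, 29, 71, 43, 40 and 26 peaks. At an unadjusted p under 0.05 they had 9, 9, 4, 6, 4, 6 and 1. The shares were 15.3% for neutrophils, 15% for mast cells and basophils and 13.8% for B cells, and from 3.85% to 9.30% for the others, against 9.07% of all tested peaks. Whether these cells have a part in the results was not tested.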

How the data were processed

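The authors deposited a table of raw read counts, 144411 peaks by 24 libraries. The authors' deposited comparison table gives their log2 fold changes, F statistics (recorded as a score), p-values and nearest starts. Per the submitters' processing notes, without versions or roles, the tools were edgeR, featureCounts, MACS2, Bowtie2, fastp and SAMtools and the build mm10. The sources used here do not say how peaks were merged.

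Counts were fitted in R 4.3.3 with edgeR 4.0.16 (filterByExpr, TMM, robust quasi-likelihood, 1 mean per group, 24 libraries). X chromosome peaks were left out of the main test. The SE is the log2 difference divided by the square root of F. Peaks took the deposited nearest start, or else a RefSeq start within 50 kb. Named peaks were those at Ncoa2, the 10 largest rises and falls outside the segments and 6 inside (mean of 1 CPM or more, groups apart, 1 per gene), those called for the difference between IL4 and vehicle outside, and up to 3 called peaks per list; 1 peak that the rule names is not reported here. Members and lists were chosen with earlier results of these data known. The lists hold 340 genes, 321 with a tested peak. No libraries were duplicates: counts of any pair of a group differed beyond sampling noise (chi-square per degree of freedom 1.10 or more). The fit was tested on simulated counts, with known changes in KO IL4 libraries at peaks with 10 or more counts on average. Under IL4 it found 37.3% of 1.5-fold, 64.2% of 2-fold and 90.9% of 3-fold changes, with 10 false calls. The interaction found 10.4%, 40.3% and 60.6%, with 5 false calls. Alternatives covered scaling, filter, DESeq2 1.42.0, libraries, segments and threshold.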

Additional observations from a re-analysis of the deposited data

Results flagged for a closer look

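The genotype difference differed between IL4 and vehicle at 3 peaks by the interaction test. It was 1.75 log2 units larger under IL4 at the peak near Gm36033, -0.84 at Ldlrad4 and -0.80 near 1700020M21Rik.

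Among 92 groups of 4 libraries at the named called peaks, 5 had a library that stood apart, where chance gives about 1 group in 20. KO IL4 library 2 read 3.93 CPM at a peak inside Ncoa2 (chr1:13342449-13343216), against 3.17 to 3.29 in the other KO libraries. KO library 1 read 3.07 CPM at Olfr32, against 1.25 to 1.51. WT library 3 read 2.96 CPM in Dpp10, against 2.51 to 2.58. KO library 3 read 1.59 CPM near Gm27162, against 1.15 to 1.21. KO library 2 read 0.755 CPM in 4930509E16Rik, against 0.384 to 0.442.

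The X chromosome was outside the main test. With its peaks kept, 103 of 2731 were called under IL4 (3.77%), 99 of them higher and 4 lower in KO. They lay in 10 windows of 1 Mb, and 47 lay in the window from 167 to 168 Mb. With vehicle 71 were called in the same direction and with Dex 76, and the interaction was called at 0 of the 2731.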

How the results depend on the processing

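Without each of the 8 IL4 libraries in turn, calls ran from 717 to 896 in all, from 299 to 492 outside the segments (165 to 318 higher, 126 to 235 lower) and from 399 to 423 inside (171 to 191 higher, 215 to 237 lower). Those with vehicle ran from 645 to 722, with Dex from 1021 to 1180, and the interaction from 1 to 5. DESeq2 called 277 peaks outside (172 higher, 105 lower) and 658 with Dex. Fitting the 8 IL4 libraries alone called 440 higher peaks outside. Restricted, after the data were seen, to peaks of the authors' deposited comparison table, calls numbered 617, of which 295 lay outside (162 higher), and 705 with Dex. At an adjusted p below 0.01 they numbered 600 in all, 224 outside (134 higher, 90 lower), 441 with vehicle, 630 with Dex and 1 in the interaction. Windows of 2 Mb gave 7 segments in place of 12. The cause of these changes was not tested, except that a lower threshold calls fewer peaks by construction.

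Replicate numbers are shared between the genotypes but same-numbered IL4 libraries did not deviate together (correlations -0.04 to 0.00, against -0.06 to 0.05 for other pairs). With the replicate block 1127 peaks were called, 937 of the 938 among them, and the interaction had 5. Outside the segments 633 were called, and with Dex 1467. The correlations cover the IL4 libraries only, and whether same-numbered libraries of different treatments belong together was not tested. Over the alternative fits of 46 named called peaks none changed sign, and 20 of 860 values lost the call, at 7 peaks. The median SE of a log2 difference was 0.19 under IL4 and 0.29 for the interaction, with a median of 36 counts per tested peak and IL4 library; how it changes with depth was not tested.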

Other observations

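The authors' deposited comparison table lists 70394 autosomal peaks, with 313 higher and 331 lower in KO under IL4 at an adjusted p below 0.05. Of these 644 peaks, 606 were also called here in the same direction. That table has 2 autosomal peaks called for the interaction.

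Of called peaks with an entry in that table, 9.80% of 306 outside the segments overlapped a FANTOM enhancer, against 13.9% of the 68265 listed peaks there that were tested. Inside the segments the shares were 9.69% of 320 and 13.2% of 2129.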
